A study of Homo sapiens with 8 samples.

Results

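The mitochondrial ribosomal protein genes are nuclear genes whose symbols start with MRPL or MRPS, followed by a number and in some cases a letter A, B or C. They were taken from the deposited gene table by this spelling alone, and 76 of its 22504 genes matched, 47 MRPL and 29 MRPS. The spelling rule used no expression value, but the family was chosen with earlier results of these data known. All 76 reached 1 FPKM (fragments scaled to transcript length and to the mapped fragments of the library) in at least 2 libraries and were therefore tested. From the places of the proteins in mammalian structures, 49 belong to the large subunit, MRPS30 and MRPS18A included, and 26 to the small subunit. MRPS36, a component of the oxoglutarate dehydrogenase complex, was counted in neither.

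Mitochondria hold their own ribosomes, which make the respiratory chain and ATP synthase subunits encoded in mitochondrial DNA. The ribosomal RNAs are transcribed inside the organelle, whereas the proteins are encoded in the nucleus, made in the cytosol, imported and assembled onto these RNAs. Some of the proteins descend from bacterial ribosomal proteins, and others are specific to mitochondria. Promoters of nuclear genes for mitochondrial proteins often carry sites for NRF1, for GABP of the ETS family and for YY1.

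The RNA came from U2OS cells, an established human osteosarcoma line, and was enriched for poly(A) transcripts before sequencing. The groups were G13R cells after serum stimulation, G13R cells in normal growth, GFP cells after serum stimulation and GFP cells in normal growth, with 2 libraries in each and 8 in all. G13R cells overexpressed an actin mutant, G13R, a form of actin known for not polymerizing, and GFP cells expressed GFP as the control. The labels give no promoter or actin gene for the mutant, no clone, no duration of serum and no word on whether serum was first withdrawn. By its title the study asked about nuclear actin in inducible transcription.

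ACTB, which encodes beta-actin, had 8676 and 7949 FPKM in G13R cells after serum and 11240 and 10010 FPKM in G13R cells in normal growth, against 2543 to 2779 FPKM in the 4 GFP libraries. The table holds no counts, and sequencing depth is therefore unknown. The GFP libraries after serum stood farthest apart, with 186 of 12996 tested genes over 2-fold different between them, against 87 to 102 in the other groups. Of 9 osteoblast lineage markers 5 reached 1 FPKM in every library and 3 in none, while all 5 leukocyte and all 3 endothelial markers stayed under it. Among the other lists, 2 of 4 neural markers, RBFOX3 among them at 7.70 to 14.1 FPKM, and 1 of 5 epithelial markers, EPCAM, reached it in every library. Whether the paired libraries of a group were grown as independent cultures is not stated, and the p-values below rest on a library-to-library spread that could be technical.

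Serum-treated libraries gave a smaller share of their signal to the mitochondrial ribosomal protein genes than normal growth libraries did, in both kinds of cell. The FPKM of the 76 genes summed to 4020 and 4074 in G13R cells after serum and to 4377 and 4679 in G13R cells in normal growth. In GFP cells the sums were 4123 and 4098 after serum and 5135 and 5301 in normal growth. As shares of all FPKM the sums were 0.804 and 0.803% in G13R cells after serum and 0.882 and 0.904% in G13R cells in normal growth. In GFP cells they were 0.805 and 0.761% after serum and 0.946 and 0.947% in normal growth. Both serum groups thus lay below their own normal growth groups without overlap. In the FPKM sums the 4 serum libraries also lay closer to each other than the 2 normal growth groups did. In bulk RNA, fewer cells expressing a gene and less RNA per cell cannot be told apart.

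**Figure D1:**
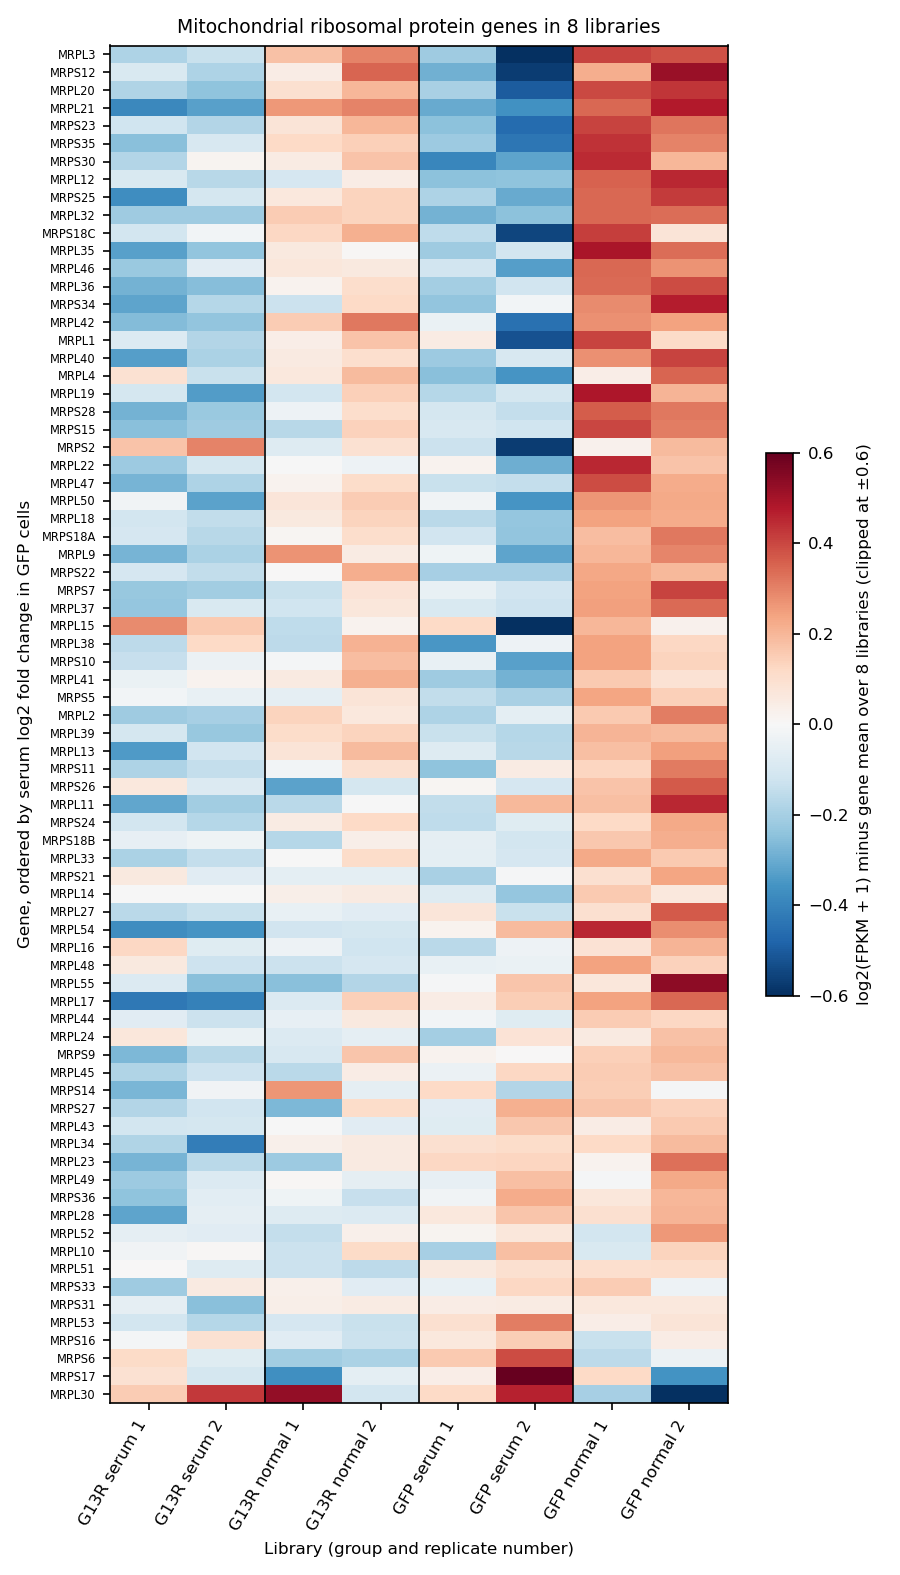
Rows are the 76 genes, ordered by their serum log2 fold change in GFP cells, and columns are the 8 libraries. Colour gives log2(FPKM + 1) minus the gene's mean over the libraries, clipped at ±0.6. The GFP normal growth columns are red for most genes, and MRPL30 at the bottom runs the other way.

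Promoters are shown for 6 of the genes with the strongest serum response in GFP cells and for MRPL46, which starts back to back with another member. MRPL3 (RefSeq, GRCh38.p14, chr3:131502942-131503121, minus strand), MRPS12 (chr19:38930794-38930973, plus strand), MRPL20 (chr1:1407264-1407443, minus strand) and MRPS23 (chr17:57850015-57850194, minus strand) carry the ETS letters CCGGAAG on 1 of the strands. MRPS35 (chr12:27710682-27710861, plus strand), MRPS30 (chr5:44808797-44808976, plus strand) and MRPL46 (chr15:88467359-88467538, minus strand) carry the YY1 letters ATGGCGG. Each line gives 150 bases before and 30 after the annotated start on the gene's strand, with these letters in capitals on whichever strand they were read.
MRPL3: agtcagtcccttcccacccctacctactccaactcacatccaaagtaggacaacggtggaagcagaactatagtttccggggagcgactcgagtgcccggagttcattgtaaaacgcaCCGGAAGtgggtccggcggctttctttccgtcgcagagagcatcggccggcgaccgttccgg
MRPS12: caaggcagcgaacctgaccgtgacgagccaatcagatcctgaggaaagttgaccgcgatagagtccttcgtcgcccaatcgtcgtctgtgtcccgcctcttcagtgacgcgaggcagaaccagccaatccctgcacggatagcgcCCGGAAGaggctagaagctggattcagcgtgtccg
MRPL20: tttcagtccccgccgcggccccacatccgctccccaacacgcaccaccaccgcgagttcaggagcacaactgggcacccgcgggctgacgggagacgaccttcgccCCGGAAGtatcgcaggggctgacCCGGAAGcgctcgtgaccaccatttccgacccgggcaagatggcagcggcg
MRPS23: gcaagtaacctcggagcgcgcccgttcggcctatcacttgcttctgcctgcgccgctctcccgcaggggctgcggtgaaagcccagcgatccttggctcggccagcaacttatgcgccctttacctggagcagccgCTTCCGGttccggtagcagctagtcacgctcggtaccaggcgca
MRPS35: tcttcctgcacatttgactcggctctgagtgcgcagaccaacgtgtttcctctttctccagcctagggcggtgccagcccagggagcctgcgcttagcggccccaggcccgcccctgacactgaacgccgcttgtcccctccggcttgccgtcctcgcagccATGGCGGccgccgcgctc
MRPS30: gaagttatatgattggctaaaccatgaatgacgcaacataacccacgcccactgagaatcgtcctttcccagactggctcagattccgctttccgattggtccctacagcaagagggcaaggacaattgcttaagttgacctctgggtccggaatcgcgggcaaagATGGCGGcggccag
MRPL46: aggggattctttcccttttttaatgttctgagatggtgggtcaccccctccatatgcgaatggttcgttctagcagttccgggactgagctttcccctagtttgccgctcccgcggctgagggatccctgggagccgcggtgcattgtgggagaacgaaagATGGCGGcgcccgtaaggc

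RefSeq promoters of 300 bases, 250 before and 50 after the start, were matched by symbol for 67 of the 76 genes, with letters searched on both strands. The ETS letters were in 41.8% of the 67 member promoters, against 19.0% of the 9602 promoters of tested genes and 10.7% of all 27305 promoters. The YY1 letters were in 34.3% of member promoters, against 10.2% and 5.72%. The NRF1 motif (GCGCA and GCGC with 1 base between them) was in 10.4% of member promoters and 11.8% of those of tested genes, and the SP1 letters GGGCGG were in 61.2% and 70.1%. The E-box CACGTG was in 8.96% and 10.3%, and the CRE letters TGACGTC in 2.99% and 5.74%. Over all promoters the shares were 6.28% for NRF1, 44.6% for SP1, 7.43% for the E-box and 3.63% for CRE, so the first 3 of these were more frequent in members than in all promoters but not than in those of tested genes. None of these motifs lies inside another, and a match is a run of letters, not a bound site.

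The YY1 letters begin with the codon ATG, and in 15 of the 23 member promoters that held them they were the annotated start codon of the gene (GENCODE 29). MRPS35, MRPS30 and MRPL46 above are among these. YY1 letters at a start codon were in 22.4% of member promoters and 3.71% of those of tested genes, and letters only elsewhere in 11.9% and 6.45%. After serum in GFP cells, 16 of the 23 members with the letters were called lower (median log2 fold change -0.44), and 18 of the 44 without them (median -0.26). For the ETS letters the counts were 12 of 28 with (median -0.27) and 22 of 39 without (median -0.37). Of all tested genes 15.7% were called lower in GFP cells. The share among tested genes whose promoters hold either motif was not computed. These splits are descriptions without a test, and no link to the letters is read from them.

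**Figure D2:**
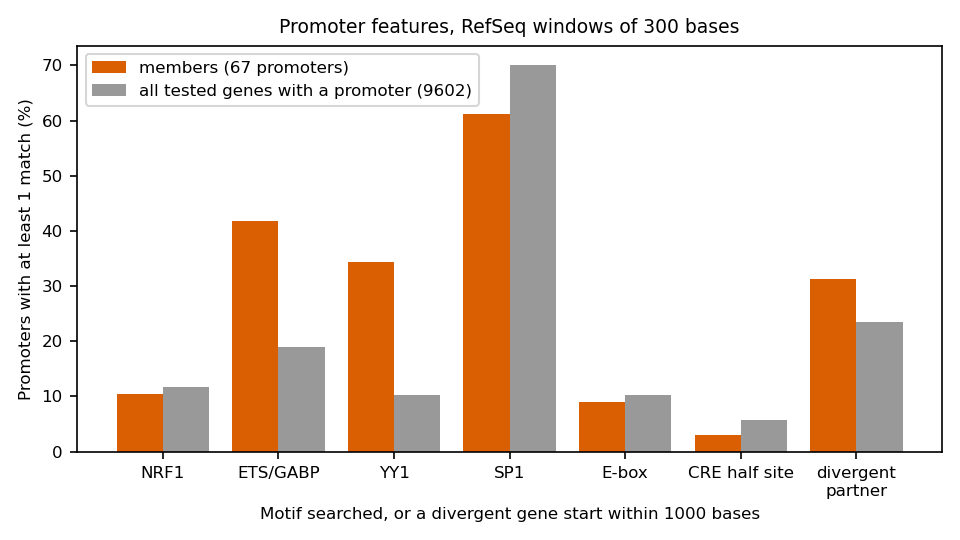
Bars give the percentage of RefSeq promoters with at least 1 match for each motif, or with a divergent gene start within 1000 bases. Orange bars are the 67 member promoters and grey bars the 9602 promoters of tested genes. ETS letters (41.8% against 19.0%) and YY1 letters (34.3% against 10.2%) show the widest gaps.

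Levels of the members covered a wide range on the FPKM scale, which is per length. The median member stood at 50.7 FPKM over all libraries, at 58.9 FPKM for large-subunit and 44.6 FPKM for small-subunit genes. MRPS24, a small-subunit core protein (hg19 chromosome 7, 43906157 to 43909492), had the highest mean. It stood at 203 and 194 FPKM in G13R cells after serum, 227 and 238 FPKM in G13R cells in normal growth, 197 and 208 FPKM in GFP cells after serum and 238 and 256 FPKM in GFP cells in normal growth. Of its 50-base windows 80.3% also occur in the readthrough transcript URGCP-MRPS24, so its level is uncertain. The mitochondrion-specific MRPL51 followed at 148 to 177 FPKM and MRPL33 at 112 to 150 FPKM. MRPS17, MRPL30 and MRPS31 were lowest, at 1.14 to 3.27, 2.95 to 13.8 and 9.64 to 12.2 FPKM. MRPS17 and MRPL30 overlap other genes, and 31.8% of the windows of MRPS17 occur in other transcripts.

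Serum stimulation was compared with normal growth within each kind of cell. In G13R cells 9 of the 76 members were called lower, 11.8%, against 4.62% of all tested genes, and 0 were called higher, against 8.26%. In GFP cells 39 were called lower, 51.3%, against 15.7% of all tested genes, and 2 were called higher, against 14.9%. A call is a limma adjusted p under 0.05 over 12996 genes. The median log2 fold change of the members was -0.19 in G13R cells (all tested genes 0.04) and -0.35 in GFP cells (all tested genes 0.01). The GFP median is a ratio of 0.784 on the scale of FPKM + 1. The fold change was below 0 for 61 of 76 members in G13R cells (44.5% of all tested genes) and 71 of 76 in GFP cells (49.1% of all tested genes).

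The serum libraries lay wholly below the normal growth libraries for 46 members in G13R cells, 60.5% against 26.4% of tested genes, and for 57 in GFP cells, against 33.0%. They lay wholly above for 7 members in G13R cells (34.3% of tested genes) and 4 in GFP cells (33.3%). Of the members, 43 were separated downwards in both kinds of cell. The share of all tested genes with this pattern was not computed, so no excess is read from that count. The number of calls, for the members and for all tested genes, depended on single libraries. Without G13R normal replicates 1 and 2 the lower calls in G13R cells were 2 and 1, without G13R serum replicates 1 and 2 they were 1 and 1, without GFP normal replicates 1 and 2 they were 3 and 3, and without either GFP serum replicate they were 18. The shares of all tested genes called lower were then 1.12 and 1.03%, 0.846 and 0.869%, 3.30% for both, and 7.13 and 7.16%, so the members stood near the background without a G13R or GFP normal library. In GFP cells they were 22 and 24 without GFP normal replicates 1 and 2, and 41 and 30 without GFP serum replicates 1 and 2, against 8.69, 9.61, 16.3 and 10.7% of all tested genes.

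**Figure D3:**
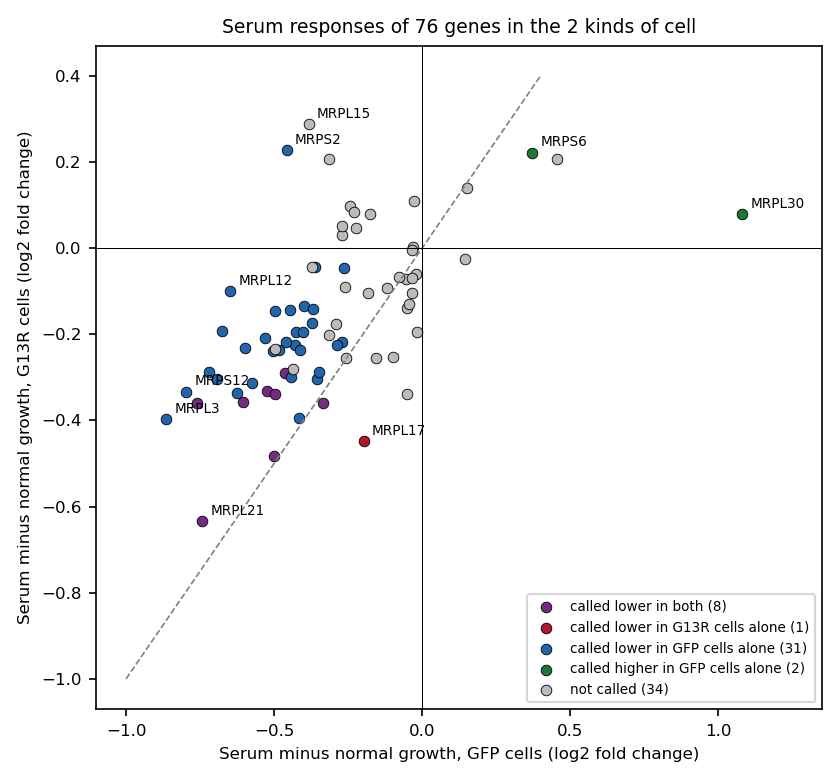
Each point is 1 of the 76 genes, with the serum log2 fold change in GFP cells on the x axis and that in G13R cells on the y axis, both of log2(FPKM + 1). Colours give the limma calls and the dashed line marks equal responses. Most points lie below 0 on both axes, and 8 genes were called lower in both kinds of cell. For all tested genes the share called lower in both was not computed.

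Calls came from both subunits. In G13R cells 8 of 49 large-subunit genes and 1 of 26 small-subunit genes were called lower, with median log2 fold changes of -0.18 and -0.20. In GFP cells the counts were 25 of 49 (median -0.35) and 14 of 26 (median -0.34). Genes with a bacterial counterpart had 7 of 45 called lower in G13R cells and 26 of 45 in GFP cells, with medians of -0.22 and -0.36. Genes specific to mitochondria had 2 of 27 in G13R cells and 12 of 27 in GFP cells, with medians of -0.14 and -0.35. No difference between these classes was tested.

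Among the core proteins near the catalytic and decoding sites, MRPL3 (chromosome 3, 131181068 to 131221827) encodes a large-subunit protein whose bacterial counterpart reaches towards the peptidyl transferase centre. MRPL3 had 90.4 and 93.7 FPKM in G13R cells after serum and 116 and 127 FPKM in G13R cells in normal growth, against 88.7 and 61.6 FPKM in GFP cells after serum and 137 and 134 FPKM in GFP cells in normal growth. Both serum groups lay below their normal growth groups, and GFP serum replicate 2 was the lowest library. MRPL3 fell in GFP cells (log2 fold change -0.87 ± 0.14 SE, adjusted p = 0.00168) and had -0.40 ± 0.14 in G13R cells (adjusted p = 0.0915). Of its windows 7.66% also occur in the pseudogene MRPL3P1.

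MRPS12 (chromosome 19, 39421188 to 39423802) encodes the small-subunit protein at the decoding centre. It had 36.2 and 33.9 FPKM in G13R cells after serum and 39.8 and 49.5 FPKM in G13R cells in normal growth, and 31.5 and 25.6 FPKM in GFP cells after serum and 45.1 and 55.7 FPKM in GFP cells in normal growth. The groups did not overlap in either kind of cell. MRPS12 fell in GFP cells (-0.80 ± 0.15, adjusted p = 0.00302), and in G13R cells the value was -0.33 ± 0.15 (adjusted p = 0.16). Its span overlaps that of SARS2, which encodes the mitochondrial seryl-tRNA synthetase and was read at 5.78 to 16.7 FPKM.

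MRPL20 (chromosome 1, 1337288 to 1342693) encodes a large-subunit protein whose counterpart in Escherichia coli is needed early in assembly. It had 80.1 and 76.7 FPKM in G13R cells after serum and 97.4 and 104 FPKM in G13R cells in normal growth, and 79.3 and 64.0 FPKM in GFP cells after serum and 120 and 123 FPKM in GFP cells in normal growth. All 4 serum libraries were below all 4 normal growth libraries. MRPL20 was called in G13R cells at -0.36 ± 0.10 (adjusted p = 0.0492) and in GFP cells at -0.76 ± 0.10 (adjusted p = 7.24e-04). The G13R call was lost without G13R normal replicates 1 and 2 (adjusted p = 0.123 and 0.212), G13R serum replicates 1 and 2 (0.153 and 0.215) or GFP normal replicates 1 and 2 (0.0751 each). Of its windows 25.5% also occur in other transcripts, 24.4% in the pseudogene RN7SL657P.

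MRPL21 (chromosome 11, 68658744 to 68671303), a large-subunit protein gene with a bacterial counterpart, was called lower in both kinds of cell. It had 54.9 and 57.3 FPKM in G13R cells after serum and 86.4 and 88.8 FPKM in G13R cells in normal growth, and 58.2 and 55.8 FPKM in GFP cells after serum and 91.8 and 100.4 FPKM in GFP cells in normal growth. The serum libraries of both kinds of cell stood at one level, below all normal growth libraries. It fell by 0.63 on the log2 scale in G13R cells (SE 0.08, adjusted p = 0.00186) and by 0.74 in GFP cells (SE 0.08, adjusted p = 3.05e-04). It was the one member called in G13R cells under each of 15 alternative settings.

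The stalk of the large subunit, which recruits translation factors, is built of MRPL12 on MRPL10, with MRPL11 at its base. MRPL12 (chromosome 17, 79670387 to 79674556) had 104 and 98.6 FPKM in G13R cells after serum and 103 and 114 FPKM in G13R cells in normal growth, against 93.3 and 93.5 FPKM in GFP cells after serum and 142 and 152 FPKM in GFP cells in normal growth. The GFP normal growth libraries stood above the other 6, while the G13R groups overlapped. It fell in GFP cells (-0.65 ± 0.08, adjusted p = 5.35e-04) and had -0.10 ± 0.08 in G13R cells (adjusted p = 0.459), and 66.6% of its windows also occur in another gene's transcript. MRPL10 stood at 36.9 to 48.2 FPKM over the 8 libraries and had 0.00 ± 0.14 and -0.03 ± 0.14 in G13R and GFP cells. MRPL11 had -0.18 ± 0.13 in G13R cells and -0.29 ± 0.13 in GFP cells, with adjusted p of 0.404 and 0.119.

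**Figure D4:**
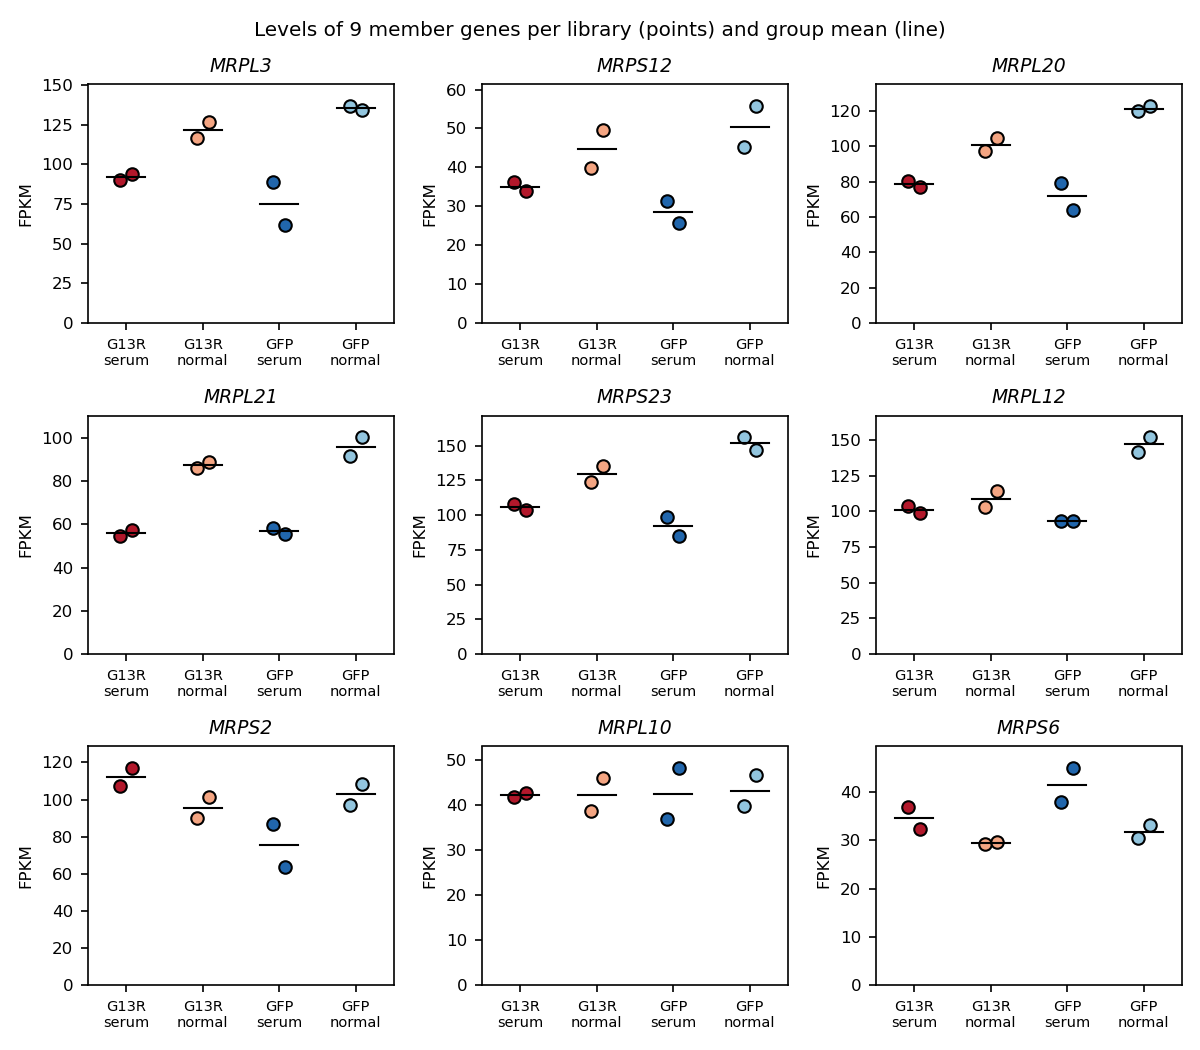
Points give the FPKM of each library and lines the mean of the 2 libraries per group for 9 genes, on axes that start at 0. MRPL21 shows the same low serum level in both kinds of cell, MRPL12 is high in GFP normal growth alone, and MRPL10 overlaps in all groups.

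Along the exit tunnel and the membrane side, the response was uneven. MRPL4, which lines the tunnel, was lower in GFP cells (-0.50 ± 0.12, adjusted p = 0.0124) and had -0.15 ± 0.12 in G13R cells. Its call was lost when GFP normal replicate 2 (adjusted p = 0.102) or GFP serum replicate 2 (0.0583) was left out. MRPL23 and MRPL24, at the tunnel exit, had -0.14 and 0.08 in G13R cells and -0.05 and -0.18 in GFP cells, and none of these values passed. MRPL45, which faces the inner membrane, had -0.09 and -0.12, also not called, and shares 16.2% of its windows with the pseudogene MRPL45P2.

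Proteins specific to mitochondria were among the members with the largest changes. MRPS23, a small-subunit protein gene (chromosome 17, 55916842 to 55927417), had 108 and 104 FPKM in G13R cells after serum and 124 and 135 FPKM in G13R cells in normal growth, and 98.7 and 84.9 FPKM in GFP cells after serum and 156 and 147 FPKM in GFP cells in normal growth. All 4 serum libraries lay below all 4 normal growth libraries. It fell in GFP cells (-0.72 ± 0.09, adjusted p = 5.47e-04), with -0.29 ± 0.09 in G13R cells (adjusted p = 0.0704). MRPS35, likewise of the small subunit, fell in GFP cells by 0.69 (SE 0.12) and had -0.30 ± 0.12 in G13R cells. MRPS30, a large-subunit protein despite its name, fell by 0.68 (SE 0.11) in GFP cells and had -0.19 ± 0.11 in G13R cells. MRPL37, another mitochondrion-specific protein of the large subunit, had -0.14 ± 0.09 in G13R cells and -0.40 ± 0.09 in GFP cells, a call lost without GFP normal replicate 2 (adjusted p = 0.0739).

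The 3 MRPS18 paralogs belong to 1 protein family with a bacterial counterpart and sit at different places in the ribosome. MRPS18A, in the large subunit, had -0.19 ± 0.10 in G13R cells and was lower in GFP cells at -0.43 ± 0.10 (adjusted p = 0.00794; 0.0652 without GFP normal replicate 2). MRPS18B, in the small subunit, had 0.03 ± 0.10 in G13R cells and -0.27 ± 0.10 in GFP cells (adjusted p = 0.0595). MRPS18C, also in the small subunit, had -0.23 ± 0.15 in G13R cells and was lower in GFP cells at -0.60 ± 0.15 (adjusted p = 0.0135). The MRPS18C call was lost when GFP normal replicate 1 (adjusted p = 0.115) or GFP serum replicate 2 (0.0822) was left out. MRPS36, the oxoglutarate dehydrogenase component, had -0.07 ± 0.13 and -0.03 ± 0.13 in G13R and GFP cells.

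In 15 members the lower call in GFP cells was kept under each of 15 alternative settings. These were MRPL3, MRPL12, MRPL18, MRPL20, MRPL21, MRPL32, MRPL35, MRPL36, MRPL40, MRPS12, MRPS23, MRPS25, MRPS28, MRPS30 and MRPS35. They include core and mitochondrion-specific proteins of both subunits. How many of all tested genes kept a lower call in this way was not computed, so the count has no background.

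The 2 members called higher in GFP cells were MRPL30, a large-subunit protein gene (chromosome 2, 99771461 to 99814089), and MRPS6 of the small subunit (chromosome 21, 35445524 to 35515334). MRPL30 had 10.4 and 12.8 FPKM in G13R cells after serum and 13.8 and 8.52 FPKM in G13R cells in normal growth, and 10.1 and 13.1 FPKM in GFP cells after serum and 7.93 and 2.95 FPKM in GFP cells in normal growth. GFP normal replicate 2 alone lay far below the others. The value was 0.08 ± 0.34 in G13R cells and 1.08 ± 0.34 in GFP cells (adjusted p = 0.0358), and 0.49 in GFP cells without GFP normal replicate 2 (adjusted p = 0.233). The call was also lost without GFP serum replicate 2 (adjusted p = 0.157) and without G13R serum replicates 1 and 2 (0.0519 and 0.0524).

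MRPS6 had 37.0 and 32.3 FPKM in G13R cells after serum and 29.3 and 29.7 FPKM in G13R cells in normal growth, and 38.1 and 45.0 FPKM in GFP cells after serum and 30.4 and 33.2 FPKM in GFP cells in normal growth. Serum libraries were above normal growth libraries in both kinds of cell. MRPS6 had 0.22 ± 0.12 in G13R cells and rose in GFP cells at 0.37 ± 0.12 (adjusted p = 0.0345). That call was lost without GFP normal replicates 1 and 2 (adjusted p = 0.18 and 0.0694), GFP serum replicate 2 (0.182) or G13R normal replicates 1 and 2 (0.0516 each). The inositol transporter gene SLC5A3 lies inside its span and had 0.99 ± 0.17 in G13R cells and 1.58 ± 0.17 in GFP cells, both called; its part in the MRPS6 value was not tested. Of the windows of MRPS6 29.3% also occur in other transcripts, as do 21% of those of MRPL30, so both values are uncertain.

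In G13R cells the other lower calls with the largest changes were MRPL42, MRPL17, MRPL13 and MRPL32, all of the large subunit. MRPL42 had 26.5 and 27.0 FPKM after serum and 35.7 and 40.03 FPKM in normal growth in G13R cells (-0.48 ± 0.13, adjusted p = 0.0419), and -0.50 ± 0.13 in GFP cells. MRPL17 had 34.2 and 34.8 FPKM after serum and 43.9 and 51.4 FPKM in normal growth in G13R cells (-0.45 ± 0.10, adjusted p = 0.0205), and -0.20 ± 0.10 in GFP cells (adjusted p = 0.173). MRPL13 had -0.36 ± 0.10 in G13R cells (adjusted p = 0.0406) and -0.34 ± 0.10 in GFP cells. MRPL32, whose protein is matured by a mitochondrial protease, had -0.36 ± 0.08 in G13R cells (adjusted p = 0.0181) and -0.61 ± 0.08 in GFP cells. The GFP calls of MRPL42 and MRPL13 were lost under 4 and 6 of the 15 alternative settings, and that of MRPL32 under 0. In all 4 the G13R libraries after serum lay below those in normal growth. Each of these G13R calls was lost without G13R normal replicate 2 and without either G13R serum replicate. Those of MRPL42, MRPL13 and MRPL32 were also lost without G13R normal replicate 1, and those of MRPL42 and MRPL13 without either GFP normal replicate. The adjusted p then reached 0.204 for MRPL42, 0.137 for MRPL17, 0.26 for MRPL13 and 0.106 for MRPL32.

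G13R cells were compared with GFP cells to show how the mutant went with the level of these genes in each condition. In normal growth 0 of 76 members were called in either direction by limma, against 0.00769% of all tested genes lower and 0.0385% higher, and 26 members, against 15.1% of all tested genes, had an unadjusted p under 0.05. The median log2 fold change was -0.18, against -0.07 for all tested genes, and 73 of 76 values were below 0, 96.1% against 64.0% of all tested genes. The G13R libraries lay wholly below the GFP libraries for 53 members, 69.7% against 34.3% of tested genes, and wholly above for 1 (14.4%). Under median-ratio scaling 37 members were separated downwards, 48.7% against 22.7%, with a median of -0.09. Under quantile normalization 31 were, 40.8% against 22.5%, with a median of -0.06.

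MRPL12 had the smallest adjusted p in normal growth, at 103 and 114 FPKM in G13R cells and 142 and 152 FPKM in GFP cells (-0.43 ± 0.08, adjusted p = 0.0934). MRPL54, MRPS26, MRPL35 and MRPS28 had -0.47 ± 0.11, -0.48 ± 0.12, -0.38 ± 0.10 and -0.30 ± 0.08, with adjusted p from 0.132 to 0.172, and 47.2% of the windows of MRPS28 occur in other transcripts. In each of these 5 genes both G13R libraries lay below both GFP libraries. Without GFP serum replicate 1 or 2, 1 member was called lower, MRPL12, against 0.477 or 0.485% of all tested genes.

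After serum 0 of 76 members were called between G13R and GFP cells by limma, against 0.492% of tested genes lower and 0.331% higher, and 12 members, against 20.8% of all tested genes, had an unadjusted p under 0.05. The median log2 fold change was -0.05, against -0.03 for all tested genes. The G13R libraries lay wholly below the GFP libraries for 26 members, 34.2% against 29.4% of tested genes, and wholly above for 16, 21.1% against 22.6%, shares near the background. MRPL17 had 34.2 and 34.8 FPKM in G13R cells and 47.9 and 51.5 FPKM in GFP cells (-0.51 ± 0.10, adjusted p = 0.0547). MRPL54 had -0.47 ± 0.11 (adjusted p = 0.0614), MRPL34 -0.40 ± 0.10 (0.083) and MRPL53 -0.34 ± 0.10 (0.0981), whereas MRPS2 had 0.58 ± 0.14 (0.0672). Other transcripts hold 50.2% of the windows of MRPL53. Without GFP serum replicate 1, 4 members were called lower and 3 higher, against 7.11 and 5.42% of all tested genes, shares no smaller than those of the members.

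Whether serum acted differently in the 2 kinds of cell was tested as the difference between the responses, G13R minus GFP. The limma test called 0 of 76 members, against 0.0% of all tested genes, and 11 members, against 11.8% of all tested genes, had an unadjusted p under 0.05. The median difference was 0.18, against 0.04 for all tested genes, and 59 of 76 were above 0, 77.6% against 56.1% of all tested genes. MRPL12 had the smallest adjusted p (0.55 ± 0.12, adjusted p = 0.259). Without GFP serum replicate 1, 6 members were called higher in the difference, against 2.32% of all tested genes. The 31 members called lower in GFP cells alone are therefore not shown to differ between the cells, nor is MRPL17, called lower in G13R cells alone.

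MRPS2 (chromosome 9, 138391830 to 138396519) encodes a small-subunit core protein. It had 107 and 117 FPKM in G13R cells after serum and 90.1 and 101 FPKM in G13R cells in normal growth, and 86.8 and 63.8 FPKM in GFP cells after serum and 96.9 and 109 FPKM in GFP cells in normal growth. The serum libraries lay above the normal growth libraries in G13R cells and below them in GFP cells, as they also did in MRPS26 and MRPL51. These 3 are 3.95% of the members, against 2.17% of all tested genes. The MRPS2 response was 0.23 ± 0.14 in G13R cells (adjusted p = 0.296) and -0.46 ± 0.14 in GFP cells (adjusted p = 0.0283), with a difference of 0.69 ± 0.19 (adjusted p = 0.275). The GFP call was lost without GFP normal replicates 1 and 2 (adjusted p = 0.0623 and 0.151) and without GFP serum replicate 2 (0.162).

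The wider machinery of mitochondrial gene expression was read from lists chosen with earlier results of these data known. Beside every list stand the shares of all tested genes, 4.62% lower and 8.26% higher in G13R cells. In GFP cells they were 15.7% lower and 14.9% higher. These shares hold for the main setting alone and changed under other settings, as given for the members when 1 library was left out. Counts of a list under another setting are therefore not to be set against them. Of 6 other ribosomal proteins of mitochondria 3 were called lower in G13R cells and 4 in GFP cells, with median log2 fold changes of -0.29 and -0.42. PTCD3, an RNA-binding small-subunit protein, fell by 0.39 (SE 0.10) in G13R cells and 0.52 (SE 0.10) in GFP cells. ICT1, the large-subunit protein that releases stalled peptides, fell by 0.30 (SE 0.09) and 0.51 (SE 0.09). The G13R calls of PTCD3 and ICT1 were lost under 5 and 7 of the 15 alternative settings. DAP3, a GTP-binding small-subunit protein, had -0.27 and -0.29, which did not pass. Without any 1 of the 4 G13R libraries the lower count in G13R cells was 0, and without GFP normal replicate 1 or 2 it was 2.

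Of 24 assembly genes 3 were called lower in G13R cells and 12 in GFP cells, with medians of -0.19 and -0.35. C1QBP, a matrix protein that binds mitochondrial RNA, had 115 and 115 FPKM in G13R cells after serum and 165 and 186 FPKM in G13R cells in normal growth, and 122 and 102 FPKM in GFP cells after serum and 227 and 220 FPKM in GFP cells in normal growth. It fell by 0.60 (SE 0.10) in G13R cells and 0.99 (SE 0.10) in GFP cells. RNMTL1, an rRNA methyltransferase, fell by 0.55 (SE 0.14) and 0.90 (SE 0.14). Its G13R call was lost under 7 of the 15 alternative settings, and that of C1QBP under 0. In both genes the serum libraries lay below all normal growth libraries. The lower count in G13R cells was 1 or 2 without 1 of the G13R libraries, 1 when either GFP normal library was left out, and 5 when either GFP serum library was.

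Of 18 genes that keep or transcribe mitochondrial DNA or process its transcripts, 1 was called lower and 1 higher in G13R cells and 12 were called lower in GFP cells, with medians of -0.20 and -0.49. The transcription factor gene TFB2M had -0.44 ± 0.18 in G13R cells and fell by 1.12 (SE 0.18) in GFP cells. The RNA-degrading enzyme gene PNPT1 had -0.37 ± 0.16 and fell by 1.16 (SE 0.16). Leaving out GFP normal replicate 1 gave 6 lower calls in GFP cells, and leaving out GFP serum replicate 2 gave 7. In G13R cells the lower count was 0 when any of the G13R libraries was left out, and 4 and 5 when GFP serum replicates 1 and 2 were. The gene called higher in G13R cells was MTERFD3, a call lost under 11 of the 14 alternative settings that tested it. Of 16 translation factor genes 3 were lower and 1 higher in G13R cells and 5 lower in GFP cells. The higher one was MTIF3, a call lost under 11 of the 15 alternative settings. Among 20 tRNA charging genes 2 were lower in G13R cells and 4 in GFP cells, the latter near the 15.7% of all tested genes. LRPPRC, which stabilizes mitochondrial mRNAs, fell by 0.46 (SE 0.09) and 0.70 (SE 0.09). Its G13R call was lost under 3 of the 15 alternative settings. The translation factor count in G13R cells was 0 or 1 when any of the G13R libraries was left out and 6 when either GFP serum library was, and in GFP cells it was 3 when either GFP normal library or GFP serum replicate 2 was left out. The tRNA charging counts were 0 in G13R cells without any 1 of the G13R or GFP normal libraries, and 2 in GFP cells without either GFP normal library.

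Protein import had the most calls, with 11 of 24 genes lower in G13R cells and 19 of 24 in GFP cells (medians -0.37 and -0.65). TOMM40, the outer membrane pore, fell by 0.52 (SE 0.14) in G13R cells and by 1.25 (SE 0.14) in GFP cells. TIMM13, an intermembrane space chaperone, fell by 0.66 (SE 0.13) and 0.81 (SE 0.13). The G13R calls of TOMM40 and TIMM13 were lost under 8 and 3 of the 15 alternative settings. The import medians ran from -0.404 to -0.271 in G13R cells and from -0.738 to -0.51 in GFP cells over the alternatives. The lower count in G13R cells fell when any of the G13R or GFP normal libraries was left out. The share of all tested genes called lower in G13R cells fell then too.

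Cytosolic ribosomal protein genes, the counterparts outside the organelle, had medians near 0 after serum. Of 80 tested, 1 was called lower and 1 higher in G13R cells and 2 lower and 1 higher in GFP cells, with medians of 0.05 and 0.00. The GFP median lay between -0.08 and 0.08 over the alternatives, so its sign depended on the setting, and that in G13R cells between -0.01 and 0.08. Under quantile normalization 3 were lower and 8 higher in G13R cells and 6 lower and 13 higher in GFP cells, with the replicate block 2 lower and 6 higher and 6 lower and 3 higher, and without GFP serum replicate 1 there were 6 higher in GFP cells. Leaving out 1 library gave 0 lower calls in G13R cells without any of the G13R libraries, and in GFP cells 0 when GFP normal replicate 2 was the one left out and 4 when GFP serum replicate 2 was. Between G13R and GFP cells in normal growth this list's median was -0.21, close to the -0.18 of the mitochondrial genes. Under quantile normalization it was -0.01, and there were 0 calls in both settings. The replicate block gave 11 lower, against 0.539% of all tested genes, and leaving out either GFP serum library also gave lower calls. Transcripts encoded in mitochondrial DNA had 0 rows in the table and were not analysed here.

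Of 12 regulators of mitochondrial gene expression 0 were called in G13R cells and 3 were lower in GFP cells, namely PPRC1, PPARGC1B and ESRRA. PPRC1, a PGC-1-related coactivator, fell by 0.93 (SE 0.15) in GFP cells, with 19.3 and 15.2 FPKM after serum and 32.3 and 34.5 FPKM in normal growth. The genes for NRF1, GABPA and YY1 had -0.04, 0.09 and -0.13 in G13R cells and -0.30, 0.24 and -0.18 in GFP cells, with adjusted p from 0.239 to 0.90. MYC had 0.19 in G13R cells and -0.33 in GFP cells (adjusted p = 0.342 and 0.0718).

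**Figure D5:**
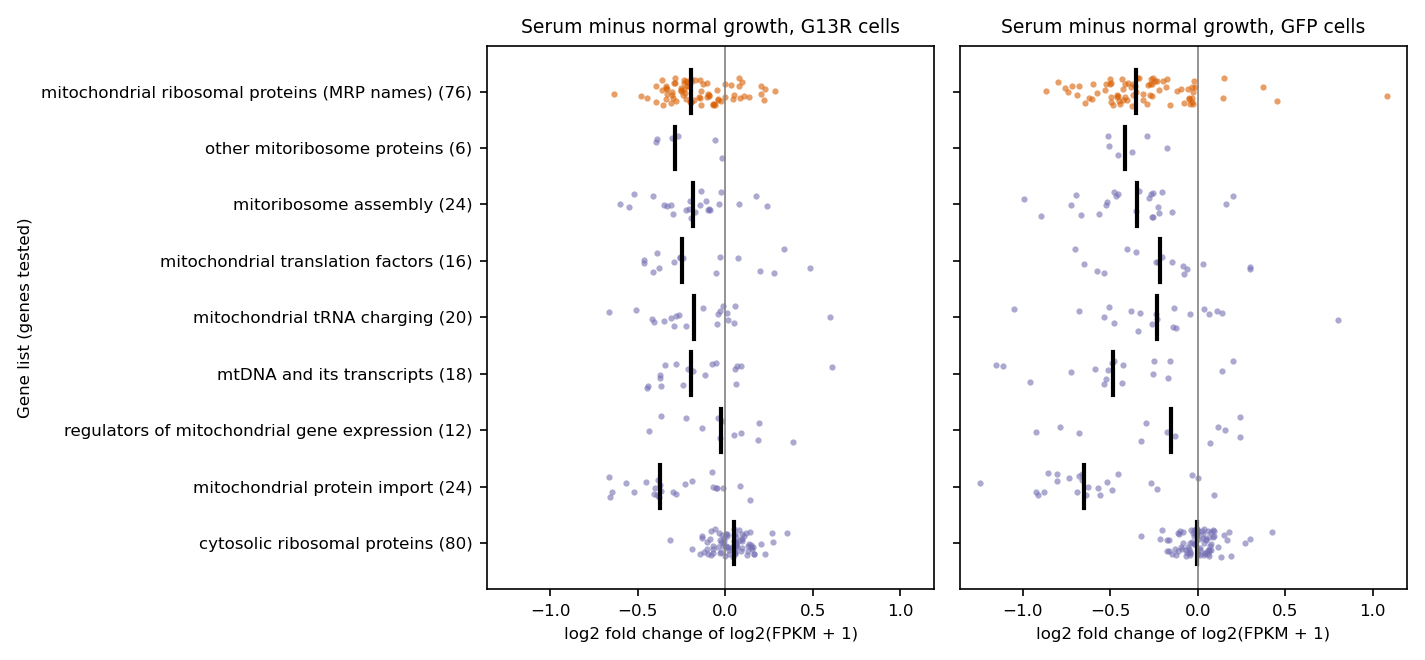
Each point is a gene, in rows by list with the number tested, and the x axis is the serum log2 fold change in G13R cells (left) and GFP cells (right). Black bars mark medians, -0.19 and -0.35 for the mitochondrial ribosomal protein genes in orange and -0.37 and -0.65 for protein import. Cytosolic ribosomal protein genes centre near 0.

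Many of these genes begin close to a gene on the opposite strand. Within 1000 bases, 31.3% of the 67 member promoters had such a divergent partner, against 23.5% of those of tested genes. For 12 members the partner was another tested gene outside the family. Of these 12 pairs, 2 members and 1 partner were called lower in G13R cells, against 4.62% of all tested genes. In GFP cells 5 members and 2 partners were, against 15.7%, so the partners stood near the background. Member medians were -0.18 in G13R cells and -0.35 in GFP cells, and partner medians were -0.22 and -0.15. Both genes of a pair were lower in GFP cells in 2 cases, MRPL18 with the chaperonin gene TCP1 and MRPL40 with the histone chaperone gene HIRA. In MRPL18 the values were -0.23 in G13R cells and -0.43 in GFP cells, and in TCP1 they were -0.44 and -0.72.

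MRPL32 starts 202 bases from the proteasome gene PSMA2, which had -0.26 ± 0.11 in G13R cells and -0.30 ± 0.11 in GFP cells, neither called (adjusted p = 0.138 and 0.0534). MRPL46 and MRPS11, both members, start 320 bases apart on opposite strands. MRPL46 had -0.21 ± 0.11 in G13R cells and was lower in GFP cells at -0.53 ± 0.11 (adjusted p = 0.00632). MRPS11 had -0.20 ± 0.11 and -0.32 ± 0.11 (adjusted p = 0.272 and 0.0619). MRPL46 has 69.7% of its windows in another transcript. In all, 34 of the 76 members overlap the span of another gene. Among the 42 that do not, 5 were called lower in G13R cells and 19 in GFP cells, against 4.62 and 15.7% of all tested genes.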

How the data were processed

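FPKM per gene and library, in a single table, is what the authors deposited. The submitters' processing notes name TopHat2 2.0.13, Cufflinks 2.2.1 and the builds hg19 and BDGP5. The gene annotation is not given in sources used here. Columns were matched to libraries by name (C read as normal growth), with 0 left over. Starts counted from 0, so 1 was added, which made span lengths multiples of 3 in 77.4% of 159 olfactory receptor genes, and 9.43% without it.

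The members and lists were chosen with earlier results of these data known. The fit used limma 3.58.1 (R 4.3.3) on log2(FPKM + 1), with an intensity trend, 1 mean per group and 4 residual degrees of freedom. Genes had to reach 1 FPKM in 2 or more libraries, and p-values were adjusted by Benjamini-Hochberg over the resulting 12996. Fold changes understate those of low genes. Errors are SE, with n = 2 libraries a group. The fit was tested on simulated data. Named genes were up to 6 called members each way per contrast, otherwise the 5 of smallest p, the 3 highest and 3 lowest, a set of stalk, tunnel, core and paralog genes, and up to 3 called genes per other list and serum contrast. MRPL18, MRPL36, MRPL40, MRPL46, MRPS25, DAP3, MYC, NRF1, GABPA, YY1, TCP1, HIRA and PSMA2 were named after their values were seen.

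Shared windows are 50-base runs of a member's longest protein-coding transcript in GENCODE 29 that also occur in a transcript of another gene. Other transcripts of the member were not examined. Low FPKM values of library pairs lay at 1 common ratio in 9.49 to 17.1% of genes, so whole reads could not be recovered and a count test was not made. Cufflinks assigns fragments to transcripts by estimate, which leaves genes with shared windows uncertain. The settings varied were the pseudocount (0.1), the filter (none, or 5 FPKM), the scaling (median-ratio, quantile), the trend, a replicate block and each library left out in turn. The members without overlaps and the lists under each setting were added after seeing the data.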

Additional observations from a re-analysis of the deposited data

Results flagged for a closer look

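In 3 members the serum libraries lay wholly above the normal growth libraries in G13R cells and wholly below them in GFP cells, a pattern found in 2.17% of all tested genes. The serum response in G13R minus GFP cells was 0.685 for MRPS2 (limma adjusted p = 0.275), 0.521 for MRPS26 (0.308) and 0.134 for MRPL51 (0.631). None of these differences passed the test.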

How the results depend on the processing

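The median serum response of the members stayed below 0 in both kinds of cell under all 15 alternative settings, and no called value of a named gene changed sign. Uncalled values near 0 did, such as that of MRPL10 after serum in GFP cells (-0.219 to 0.16). Leaving out 1 library at a time gave 1 to 18 members lower in G13R cells after serum (median -0.255 to -0.125), 22 to 41 lower and 0 to 2 higher in GFP cells, 0 to 6 higher in the difference, 0 to 1 lower between the cells in normal growth, and 0 to 3 higher and 0 to 4 lower between them after serum (median -0.0835 to -0.0262). The lower calls in G13R cells were 20 under median-ratio scaling, 4 with no filter, 1 without the trend, and 6 with a pseudocount of 0.1 or quantile normalization. The shares of all tested genes called lower were then 6.06, 1.71, 2.06, 4.47 and 5.14%. Without the trend the members thus had no larger share than all tested genes. The 2 higher calls in GFP cells were 0 with no filter, without the trend or among members without overlaps. Under quantile normalization the medians were -0.238 for serum in GFP cells, 0.0831 for the difference, and -0.0632 and -0.011 between the cells in normal growth and after serum. Median-ratio scaling gave -0.0944 and -0.022 for these last, and members without overlaps gave -0.00858 after serum. Between the cells after serum, a filter of 5 FPKM gave 1 higher and 2 lower, against 1.09 and 1.57% of all tested genes. Median-ratio scaling, quantile normalization and the replicate block each gave 1 lower, against 0.577, 0.669 and 2.12%. In each case the cause was not tested. Between groups, the deviations of libraries that share a replicate number correlated at 0.017 to 0.122. Correlations this weak cannot tell whether those libraries shared a batch. With the replicate block, 9 members were lower in G13R cells after serum, against 5.02% of all tested genes. In GFP cells 43 were lower and 2 higher, against 16.3 and 15.3%. Between the cells in normal growth, the block raised the share of all tested genes called lower from 0.00769 to 0.539%. With 2 libraries a group and depth unknown, small changes in low genes such as MRPS17 were not detectable.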
